A study of Mus musculus with 9 samples.

Results

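MHC class I molecules display peptides from inside the cell to CD8+ T cells, and the related molecule CD1d displays lipids to natural killer T cells. A class I molecule is a heavy chain paired with beta-2-microglobulin. Its peptides are cut by the proteasome, in immune cells largely by a form that carries inducible catalytic subunits, and are carried into the endoplasmic reticulum by the TAP transporter, where tapasin holds TAP beside the waiting heavy chain. NLRC5 switches on many of these genes together, whereas CD1d shares beta-2-microglobulin but loads lipids in endosomes. Among splenic B cells, the marginal zone subset is known for high surface CD1d.

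The genes described are 10 members chosen by name, namely the class I heavy chains H2-K1 and H2-D1, the light chain B2m, the loading genes Tap1, Tap2 and Tapbp, the immunoproteasome genes Psmb8 and Psmb9, the regulator Nlrc5 and Cd1d1. All 10 of them had 1 row each among the 24459 rows of the table, and all 10 passed the minimum of a mean of 0.5 FPKM, which left 11597 rows tested. FPKM is the number of sequenced fragments per kilobase of transcript and per unit of sequencing depth, which adjusts levels for transcript length and for depth. The scale still varied between libraries, with summed FPKM from 446033 in FO replicate 2 to 517208 in MZ replicate 3.

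RNA-seq had been performed on sorted splenic B cells of naive mice 8 to 10 weeks old, with 3 libraries for each of 3 subsets and 5 mice pooled per sort. FO and BDL were both sorted from the follicular gate, B220+ IgM-intermediate CD21-intermediate CD23+ CD93-, with FO cells having high IgD and BDL having low IgD. The study proposes BDL as a new subset and calls their relationship to FO cells unclear. MZ are marginal zone B cells, sorted as B220+ IgM-high CD21-high CD23- CD93-. No gate used CD1d or a class I molecule. The title of each library ends in 1 of 3 numbers in the form of a date, each shared by 1 library of every subset. The labels do not say what was done on that date, which is called the title date here and gives the replicate number. The comparisons ask how the IgD-low cells differ from IgD-high follicular and from marginal zone cells, and how those subsets differ from each other.

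The labels name C57/BL6 as the strain and the study B10.PL for the sequenced cells, a strain that carries another MHC haplotype. H2-Ea-ps, the class II E alpha gene whose RNA C57BL/6 mice lack, had 2244 to 3534 FPKM in every library, which goes against the strain label. The mm9 reference carries the C57BL/6 haplotype, so reads of H2-K1 and H2-D1 may have been matched to alleles other than their own. The summed FPKM of 5 B cell markers was 2917 to 4240 per library, against 8.71 at most for 6 T cell, 6 myeloid, 6 dendritic, 5 NK or 4 erythroid markers. The myeloid markers summed to 6.47 to 8.71 FPKM in BDL and 3.01 to 5.82 in FO, and the erythroid ones to 7.001 to 8.04 and 1.80 to 4.18, and their part in the results was not tested. Plasma cell markers, among them Irf4, which B cells also make, summed to 112.5 to 278.6 FPKM. The 5 MZ markers summed to 789.9 to 1011 in MZ libraries and to 147.9 to 189.5 in the others, and the 5 FO markers to 433.5 to 589.2 and 1375 to 1821, so the labelled subsets matched their markers, of which Cr2 and Fcer2a encode the gated CD21 and CD23. BDL replicate 3 stood apart, with the widest deviations from its subset mean (SD 0.676 on the log2 scale across genes, against 0.515 to 0.599 in the others), which rose with transcript length (r = 0.211).

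The promoters of the class I chains, B2m and Tap1 are shown because they hold the letters through which this group of genes is commonly regulated. RefSeq has a promoter for 7 of the 10 members in the table used here. Each sequence is the 250 bases before the RefSeq start on the GRCm38.p6 build, read 5′ to 3′ on the strand of the gene, from the C57BL/6J reference. Capitals mark exact matches on either strand to the kappa B motif GGGATTCCC, a form of the interferon response motif, GAANNGAAA, the core TGACG of the X2 box and the CCAAT box, none of which overlap here. Other forms of these motifs are not marked.
H2-K1, chr17:34000334-34000583, minus strand, most downstream of 2 starts: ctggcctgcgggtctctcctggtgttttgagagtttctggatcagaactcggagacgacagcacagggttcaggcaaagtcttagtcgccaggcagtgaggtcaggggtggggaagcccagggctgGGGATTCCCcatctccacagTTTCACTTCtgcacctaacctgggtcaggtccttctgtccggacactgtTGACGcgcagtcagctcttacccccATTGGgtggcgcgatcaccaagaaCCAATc
H2-D1, chr17:35262844-35263093, plus strand: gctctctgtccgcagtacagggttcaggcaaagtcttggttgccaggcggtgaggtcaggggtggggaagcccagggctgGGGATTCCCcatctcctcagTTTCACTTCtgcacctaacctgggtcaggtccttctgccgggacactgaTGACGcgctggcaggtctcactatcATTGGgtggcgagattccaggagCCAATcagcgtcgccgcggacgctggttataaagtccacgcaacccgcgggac
B2m, chr2:122147437-122147686, plus strand: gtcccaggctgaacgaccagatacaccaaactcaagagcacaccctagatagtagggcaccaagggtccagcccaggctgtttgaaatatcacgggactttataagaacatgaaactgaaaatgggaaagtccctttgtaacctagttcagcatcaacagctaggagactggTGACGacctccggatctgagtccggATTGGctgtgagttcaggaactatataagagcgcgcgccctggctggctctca
Tap1, chr17:34187306-34187555, plus strand: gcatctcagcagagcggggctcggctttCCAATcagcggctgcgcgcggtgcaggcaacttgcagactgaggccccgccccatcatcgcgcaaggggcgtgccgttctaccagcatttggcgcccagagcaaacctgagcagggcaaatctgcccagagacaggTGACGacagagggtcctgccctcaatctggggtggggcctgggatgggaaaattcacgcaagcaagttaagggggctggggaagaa

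H2-K1 and H2-D1 held the same 4 kinds of motif in the same order. The kappa B match began at -124 from the start in H2-K1 and at -170 in H2-D1, and 0.301% of 32851 promoter windows of this length hold one. GAANNGAAA was found in 6.31% of the windows, TGACG in 17.8% and CCAAT in 33.8%. Of these exact letters the B2m window held TGACG and CCAAT only, and so did that of Tap1. Forms with another spacing were not searched, such as gaaactgaaa, which the B2m window holds, so absence of an interferon response element cannot be read from this. Tap1 and Psmb9 start 226 bases apart and are read away from each other, so that their windows overlap and hold the same TGACG and CCAAT. The Tapbp window held CCAAT only, and none of the motifs was found in that of Psmb8.

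Transcripts of the class I molecule itself were the most abundant of the 10 genes in every library, and Nlrc5 and Cd1d1 were the least abundant in FO cells and in BDL. B2m, the light chain, had 1140 ± 14.1 FPKM in FO (SD, n = 3), H2-D1 had 756 ± 15.6 and H2-K1 had 461 ± 17.8. Psmb8 followed with 148 to 156 FPKM in the FO libraries, and Tapbp, Tap2, Psmb9 and Tap1 lay between 48.4 and 93.4 FPKM there. Nlrc5 and Cd1d1 were at 14.7 ± 0.642 and 16.5 ± 0.196 FPKM. In MZ cells Cd1d1 lay above Tapbp, Psmb9, Tap1 and Tap2 in replicates 1 and 2, and above the last 3 of these in replicate 3.

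**Figure D1:**
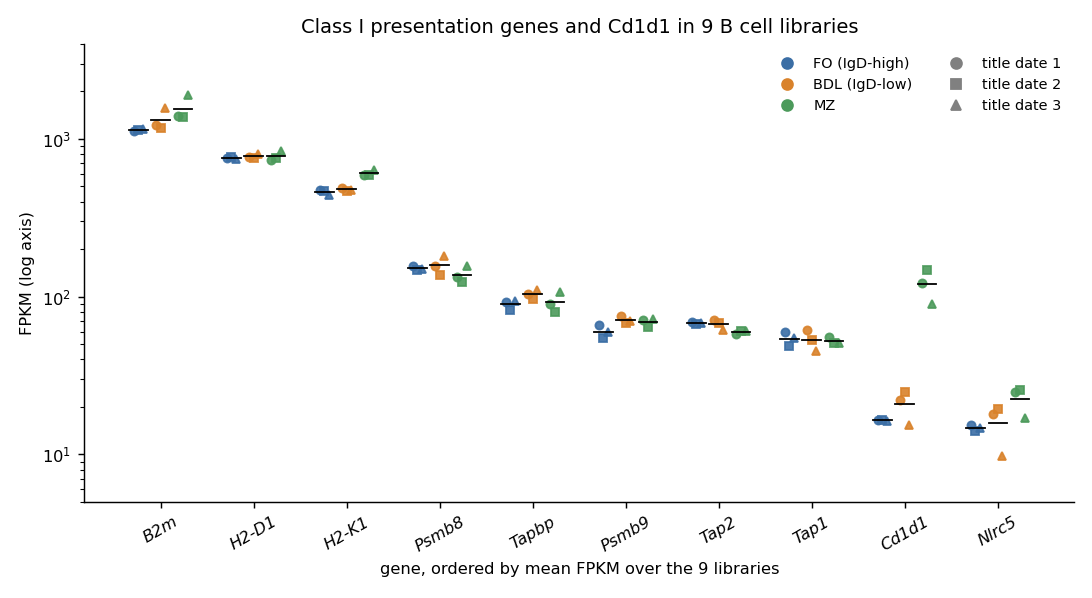
FPKM of the 10 genes (log axis), ordered by their mean over the 9 libraries, with FO in blue, BDL in orange and MZ in green, a symbol for each title date and a line at the mean of 3 libraries. Cd1d1 is the gene whose MZ libraries lie far above the others, at 89.2 to 147 FPKM against 15.4 to 24.9.

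The 10 members were next compared between subsets. Calls required an adjusted p below 0.05 (limma, Benjamini-Hochberg over 11597 rows) together with a fold change of at least 2. Between BDL and FO 0 of 10 members were called by limma, the only tool run, and 1 had an unadjusted p under 0.05, whereas 1.64% of all rows tested were called higher and 0.267% lower in BDL. Between MZ and FO 1 member, Cd1d1, was called higher and 0 lower, against 5.54% and 3.39% of all rows. Between BDL and MZ the same gene was called lower and 0 members higher, against 4.34% and 3.47% of all rows. By the adjusted p alone, 0 members passed between BDL and FO, where 6.04% of all rows passed as higher and 1.68% as lower. Cd1d1 and H2-K1 passed as higher in MZ than in FO (14.3% of all rows higher, 12.8% lower) and as lower in BDL than in MZ (11.6% lower, 16.5% higher). These shares by the adjusted p depend on the scaling for BDL over FO, where 701 rows passed as higher and 195 as lower as deposited, 606 and 355 after upper quartile scaling and 651 and 363 after quantile normalization. For BDL over MZ they were 1909 and 1346 as deposited and 1586 and 1703 after upper quartile scaling. More rows passed with the title date as a block, 1806 as higher and 572 as lower for BDL over FO. With that block 2285 and 2215 passed for MZ over FO, and 3043 and 1909 for BDL over MZ. The median log2 fold change of the members was 0.05 for BDL over FO, 0.12 for MZ over FO and 0.01 for BDL over MZ, beside 0.05, -0.01 and 0.06 over all rows. The comparisons share libraries, so a high value in MZ enters both comparisons with MZ.

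**Figure D2:**
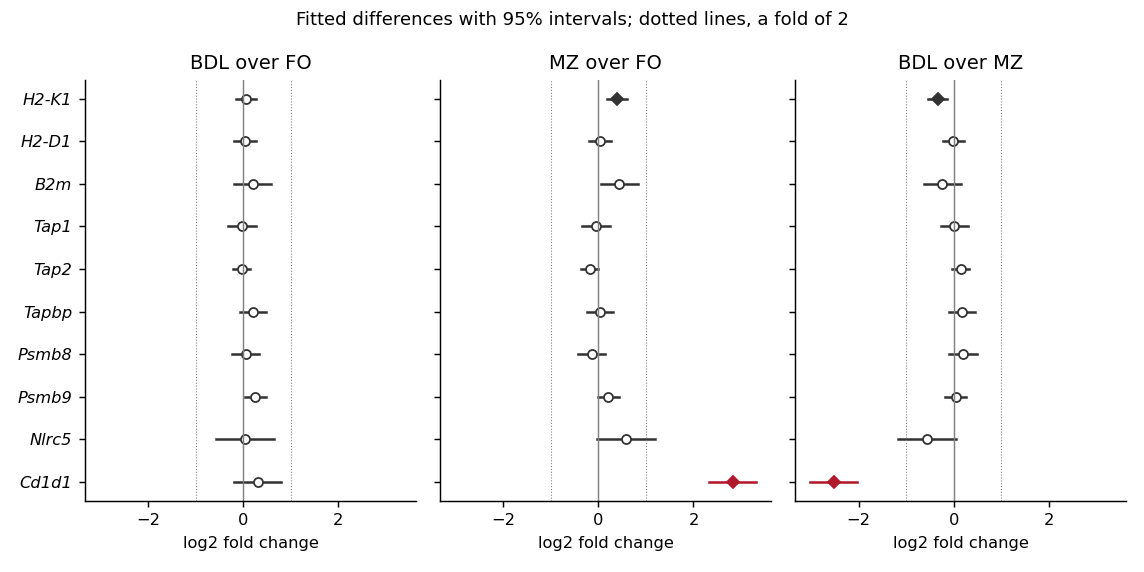
Fitted log2 fold change of each member in the 3 comparisons with its 95% interval. Diamonds mark an adjusted p under 0.05 and red a call, which only Cd1d1 reached, at 2.83 for MZ over FO and -2.52 for BDL over MZ.

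H2-K1 and H2-D1 encode the heavy chains that hold the peptide. H2-K1 was at 474, 468 and 441 FPKM in FO replicates 1 to 3, at 491, 469 and 478 in BDL and at 591, 595 and 631 in MZ cells. All 3 MZ libraries lay above all 6 others, while FO and BDL overlapped. H2-K1 was higher in MZ than in FO by 0.39 on the log2 scale (SE 0.0895, adjusted p = 0.0126), a fold of 1.31 that is below the minimum for a call, and in 3 of 3 same-date pairs. It was lower in BDL than in MZ by a log2 fold change of -0.34 (adjusted p = 0.0243), again in 3 of 3 pairs. The second of these did not pass with the 6 libraries of both subsets alone (adjusted p = 0.0882) or without BDL replicate 1 or 2 or MZ replicate 1 or 2 (0.0564 to 0.0662), and the first did not without FO replicate 3 (0.0616). The interval of the difference between BDL and FO ran from -0.15 to 0.26.

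H2-D1 was at 754, 772 and 741 FPKM in FO, 774, 753 and 797 in BDL and 739, 756 and 835 in MZ cells. The subsets overlapped in each comparison. The log2 fold change was 0.04 for MZ over FO, with an interval from -0.19 to 0.26. The ratio of H2-K1 to H2-D1 in the same library does not depend on how the library was scaled. It was 0.629, 0.606 and 0.595 in FO, 0.635, 0.622 and 0.599 in BDL, and 0.799, 0.787 and 0.756 in MZ cells. The MZ libraries were apart from the other 6, by 0.356 on the log2 scale over FO (exact permutation test, two-sided, p = 0.1, the smallest that 3 against 3 libraries allow, adjusted p = 0.2 over 24 ratio tests). Of the 50-base windows of the H2-K1 transcript, 8.87% also occur in other genes, and 14.3% of those of H2-D1, mostly other class I chains, so the split of reads among these genes is uncertain.

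B2m, the light chain of class I and of CD1d, was at 1129, 1137 and 1156 FPKM in FO, 1224, 1177 and 1562 in BDL and 1406, 1373 and 1899 in MZ cells. FO was lowest on each date and MZ highest, and the libraries of the third date were the highest of BDL and of MZ. The log2 fold change of MZ over FO was 0.44 (SE 0.169, adjusted p = 0.0968), and with the title date as a block the adjusted p was 0.0333. Without the third date it was 0.29 (adjusted p = 0.0534), and with each library corrected for GC content and transcript length 0.23 (adjusted p = 0.315). After quantile normalization the log2 fold change of MZ over FO was 0.12 (adjusted p = 0.419). B2m has the shortest transcript of the members, 860 bases, and the lowest GC content, 41.2%. Across genes, deviations rose with length in BDL replicate 3 and MZ replicate 3 (r = 0.211 and 0.102). They fell with GC content there (r = -0.114 and -0.059). B2m was the highest of its subset in both libraries, and the part of length or GC content in this was not tested. BDL over FO was 0.20 (interval -0.19 to 0.59), and 0.07 without BDL replicate 3 and 0.08 without the third date. The B2m transcript shares no 50-base window with another gene.

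**Figure D3:**
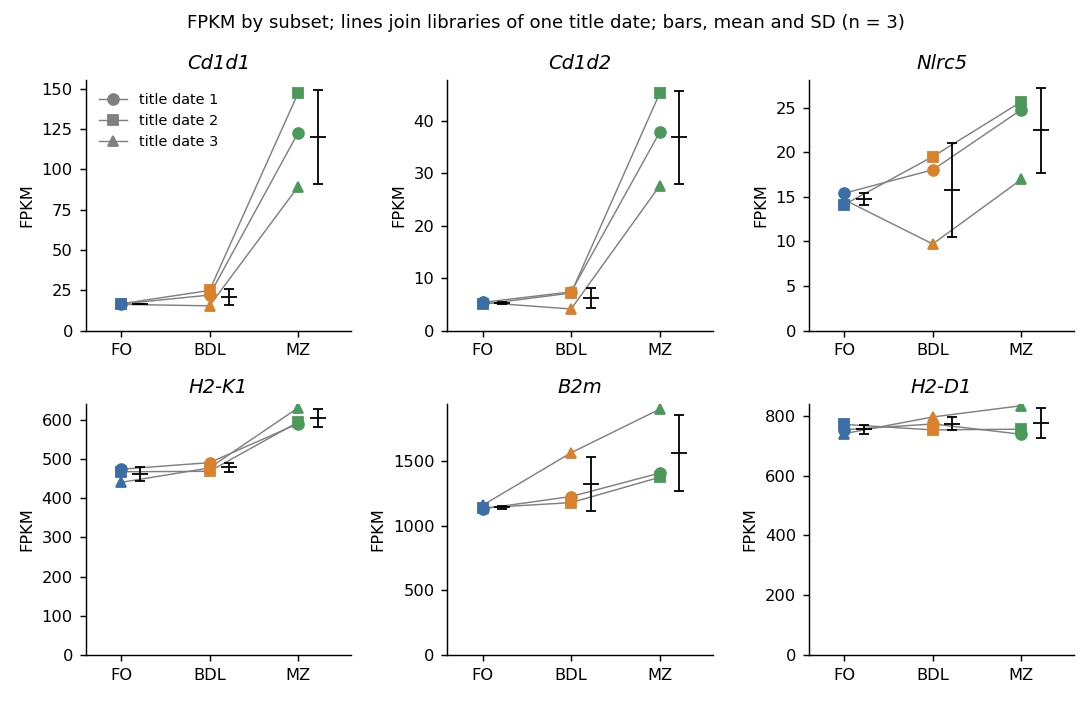
FPKM of Cd1d1, Cd1d2, Nlrc5, H2-K1, B2m and H2-D1 in each library, from 0, with grey lines joining libraries of one title date and bars giving the mean and SD of 3 libraries. Cd1d1 and Cd1d2 rise to MZ on every date, and BDL replicate 3 is the lowest BDL library of Cd1d1, Cd1d2 and Nlrc5 but the highest of B2m.

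Tap1 and Tap2 form the transporter that carries peptides into the endoplasmic reticulum. Tap1 was at 59.3, 48.4 and 54.8 FPKM in FO, 61.3, 53.4 and 44.9 in BDL and 55.1, 50.6 and 50.7 in MZ cells, so that the subsets overlapped throughout. Tap2 was at 69.4, 66.7 and 68.0 FPKM in FO, 71.2, 67.8 and 61.6 in BDL and 58.3, 60.9 and 60.9 in MZ cells, with every MZ library below all others. The log2 fold change of MZ over FO for Tap2 was -0.18 (adjusted p = 0.132) and that of BDL over MZ 0.15 (adjusted p = 0.187). Without the third title date the latter was 0.22 (adjusted p = 0.0376), and after quantile normalization it was -0.01 (adjusted p = 0.958). With the correction for GC content and length MZ over FO was -0.05 (adjusted p = 0.594). The ratio of Tap1 to Tap2 was 0.795 ± 0.065 in FO, 0.793 ± 0.0659 in BDL and 0.869 ± 0.0663 in MZ cells (SD, n = 3), which overlapped.

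Tapbp encodes tapasin. It was at 92.7, 82.7 and 93.4 FPKM in FO, 104, 97.1 and 110 in BDL and 89.6, 79.4 and 107 in MZ cells. Every BDL library lay above every FO library, with a log2 fold change of 0.21 that did not pass the test (interval -0.07 to 0.49, adjusted p = 0.333). The interval of MZ over FO ran from -0.25 to 0.31.

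Psmb8 and Psmb9 encode catalytic subunits that replace Psmb5 and Psmb6 in the immunoproteasome. Psmb8 was at 156, 148 and 150 FPKM in FO, 156, 137 and 180 in BDL and 134, 123 and 156 in MZ cells, with overlap in every comparison. Psmb9 was at 66.0, 54.4 and 59.4 FPKM in FO, 74.8, 68.5 and 70.4 in BDL and 71.4, 63.9 and 72.2 in MZ cells. All BDL libraries lay above all FO libraries of Psmb9, and the log2 fold change was 0.25 (SE 0.0964, adjusted p = 0.153), while with the title date as a block the adjusted p was 0.039. For MZ over FO the log2 fold change of Psmb9 was 0.21 (adjusted p = 0.155, and 0.0413 with the block). The 5′ ends of Psmb9 and Tap1 overlap in the annotation, where 12.5% of the Psmb9 windows and 5.61% of the Tap1 windows lie in the other gene.

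The inducible subunits were then set against the constitutive ones they replace. Psmb5 was at 29.6, 28.7 and 33.2 FPKM in FO, 42.0, 39.7 and 48.7 in BDL and 27.1, 26.1 and 32.9 in MZ cells. Every BDL library was above the others, with log2 fold changes of 0.51 over FO (adjusted p = 0.0404) and 0.60 over MZ (adjusted p = 0.00726). The ratio of Psmb8 to Psmb5 in the same library was 5.25, 5.16 and 4.52 in FO, 3.70, 3.46 and 3.69 in BDL and 4.92, 4.72 and 4.73 in MZ cells. BDL lay below both other subsets, by -0.457 on the log2 scale against FO and -0.406 against MZ. The ratio of Psmb9 to Psmb6 was 1.75, 1.47 and 1.52 in FO, 1.71, 1.60 and 1.58 in BDL and 2.49, 2.02 and 2.04 in MZ cells, with MZ above both others. The ratio of Psmb10 to Psmb7, the remaining pair, was 0.998 ± 0.0766 in FO, 0.873 ± 0.032 in BDL and 0.936 ± 0.019 in MZ cells (SD, n = 3), and BDL lay below both others. Each of these separations had the smallest possible p of 0.1 in the exact permutation test and an adjusted p of 0.2, which 12 of the 24 ratio tests reached.

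**Figure D4:**
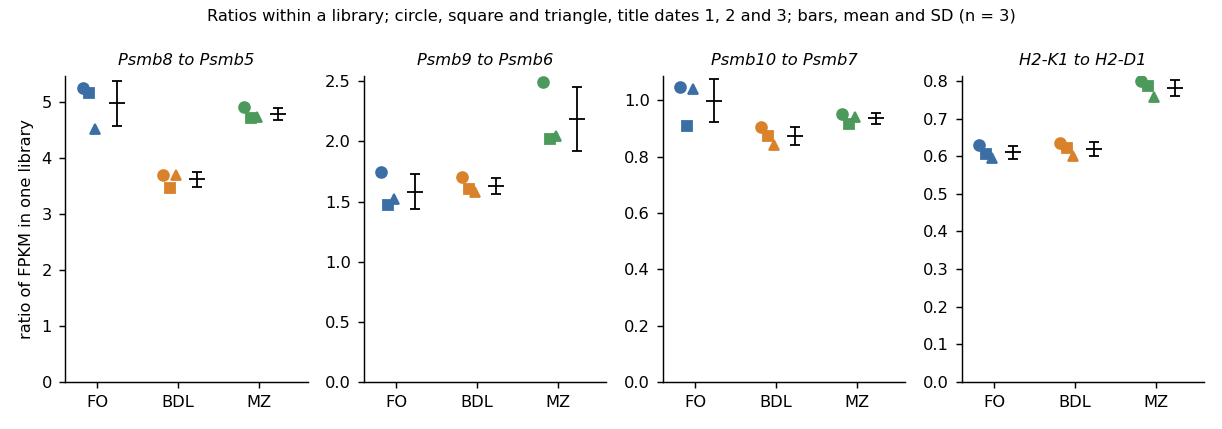
Ratios of FPKM within each library, from 0, for the 3 pairs of inducible and constitutive proteasome subunits and for H2-K1 to H2-D1, with a symbol per title date and bars for the mean and SD of 3 libraries. Psmb8 to Psmb5 is lowest in BDL (3.46 to 3.70), and Psmb9 to Psmb6 and H2-K1 to H2-D1 are highest in MZ.

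Nlrc5, the transactivator of class I genes, was at 15.4, 14.1 and 14.7 FPKM in FO, 18.0, 19.5 and 9.72 in BDL and 24.8, 25.7 and 17.0 in MZ cells. Every MZ library was above every FO library, whereas BDL overlapped with both. The library of the third date was the lowest of BDL and of MZ but not of FO. The log2 fold change was 0.58 for MZ over FO (SE 0.265, adjusted p = 0.15), -0.55 for BDL over MZ (adjusted p = 0.163) and 0.03 for BDL over FO (interval -0.58 to 0.64). Without the third title date these were 0.77 (adjusted p = 0.00301), -0.43 (adjusted p = 0.0144) and 0.34 (adjusted p = 0.0618), none of them a fold of 2. Without BDL replicate 3 alone BDL over MZ was -0.24 (adjusted p = 0.363) and BDL over FO 0.35 (adjusted p = 0.305), while MZ over FO stayed at 0.58 (adjusted p = 0.0249). The Nlrc5 transcript is the longest of the members, at 6945 bases. Across genes, deviations rose with length in BDL replicate 3 and MZ replicate 3 (r = 0.211 and 0.102). Nlrc5 was lower in them, and the part of length in this was not tested. After correction for GC content and length the log2 fold change of MZ over FO was 0.69 (adjusted p = 0.103).

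Cd1d1, which encodes the CD1d heavy chain, was at 16.5, 16.6 and 16.2 FPKM in FO, 22.02, 24.9 and 15.4 in BDL and 123, 147 and 89.2 in MZ cells. The lowest MZ library was far above the highest of the other subsets, and FO and BDL overlapped. Cd1d1 rose 7.09-fold from FO to MZ, a log2 fold change of 2.83 (SE 0.216, adjusted p = 3.76e-05), and was 5.74-fold lower in BDL than in MZ (log2 fold change -2.52, adjusted p = 7.97e-05). Both calls held in 24 of 24 alternatives. BDL over FO was 0.30, with an interval from -0.19 to 0.80, and an adjusted p of 0.42. It was positive on the first 2 dates (0.41 and 0.58) and -0.08 on the third, and without that date it was 0.50 (adjusted p = 0.0707). As these are bulk samples, more cells with Cd1d1 and more Cd1d1 RNA per cell cannot be told apart.

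Cd1d2, the neighbouring second copy of the CD1d gene, was at 5.37, 5.0 and 5.35 FPKM in FO, 7.37, 7.15 and 4.11 in BDL and 37.8, 45.2 and 27.6 in MZ cells. Its log2 fold changes were 2.76 for MZ over FO (adjusted p = 8.53e-05) and -2.57 for BDL over MZ (adjusted p = 0.000148). The copies share much sequence, since 25.8% of the 50-base windows of Cd1d1 occur in Cd1d2 and 41.0% of those of Cd1d2 in Cd1d1, so the level of Cd1d2 is uncertain. The ratio of Cd1d1 to Cd1d2 was 3.14 ± 0.155 in FO, 3.40 ± 0.381 in BDL and 3.25 ± 0.011 in MZ cells (SD, n = 3). Summed over both copies, MZ over FO was 2.82 on the log2 scale (adjusted p = 4.41e-05). Relative to B2m in the same library, Cd1d1 was at 0.0873, 0.107 and 0.047 in MZ cells, at 0.0146, 0.0146 and 0.0140 in FO and at 0.0180, 0.0212 and 0.00983 in BDL.

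By position on NCBIM37, the build of mm9, with GENCODE M1, 7 of the members lie on chromosome 17, in the MHC. They are Tapbp (34052844 to 34066235), H2-K1 (34132962 to 34137278), Psmb9 (34318932 to 34324697), Tap1 (34324498 to 34334170), Psmb8 (34334666 to 34338399), Tap2 (34340472 to 34353266) and H2-D1 (35399675 to 35404444). B2m lies on chromosome 2 (121973422 to 121978819), Nlrc5, annotated there as a lincRNA, on chromosome 8 (96996663 to 97051172) and Cd1d1 on chromosome 3 (86799756 to 86803363), with Cd1d2 at 86790508 to 86793455. The number of fragments behind a value, estimated from the steps between low FPKM values, ran from about 1900 for Cd1d1 in its lowest library to about 120000 for H2-D1 in its highest.

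The rest of the pathway comprised 69 genes in 5 lists, of which 65 were tested. By the call rule, 0 were called between BDL and FO, where 17 had an unadjusted p under 0.05, and 2 higher and 2 lower were called in each of the other comparisons. Of all rows, 1.64% were called higher and 0.267% lower in BDL than in FO. These shares were 5.54% and 3.39% for MZ over FO, and 3.47% and 4.34% for BDL over MZ. By the adjusted p alone, 3 rose and 1 fell from FO to BDL, 7 rose and 11 fell from FO to MZ, and 17 were higher and 8 lower in BDL than in MZ. As shares of the 65 genes these were 4.62% and 1.54%, 10.8% and 16.9%, and 26.2% and 12.3%, beside 6.04% and 1.68%, 14.3% and 12.8%, and 16.5% and 11.6% of all rows. The median log2 fold change was 0.13 for BDL over FO, 0.02 for MZ over FO and 0.13 for BDL over MZ, beside 0.05, -0.01 and 0.06 over all rows.

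**Figure D5:**
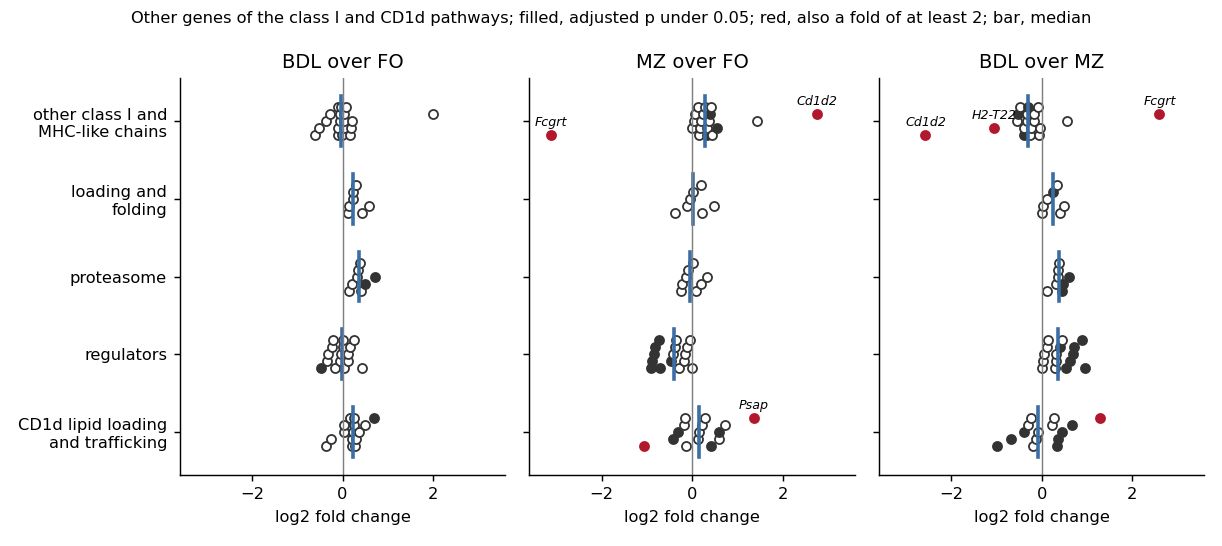
Log2 fold change of every tested gene of the 5 lists in the 3 comparisons, with filled points for an adjusted p under 0.05, red points for calls, names for the called genes described in the text, and a blue bar at the median of the list. The regulators have their median at -0.402 for MZ over FO and at 0.366 for BDL over MZ.

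Of 22 other class I and class I-like heavy chains, 19 were tested. Between MZ and FO 4 passed as higher (Cd1d2, H2-Q2, H2-T10, H2-T9) and Fcgrt as lower, with a median log2 fold change of 0.294 over the list. These were 21.1% and 5.26% of the list, beside 14.3% and 12.8% of all rows, whose median was -0.009. The 3 class I chains that passed differed by less than a fold of 2, as for H2-T10 at 18.9 ± 1.27 FPKM in FO, 19.2 ± 1.77 in BDL and 27.8 ± 0.271 in MZ cells (SD, n = 3, MZ over FO 0.56, adjusted p = 0.00207). H2-T22, a class Ib chain, was at 9.67, 10.0 and 9.58 FPKM in FO, 5.22, 9.41 and 5.25 in BDL and 13.1, 13.2 and 13.5 in MZ cells. It was called lower in BDL than in MZ (log2 fold change -1.05, adjusted p = 0.00612), with 2 BDL libraries near 5 FPKM and the other near FO. Of the pathway genes called it lay nearest the minimum fold of 2. Without BDL replicate 3, or with 1 FPKM added, the pathway genes called between BDL and MZ fell from 4 to 3. Windows shared with other genes were not counted for the chains of this list other than Cd1d2. Fcgrt, the heavy chain of the neonatal Fc receptor, which binds IgG rather than peptide and also pairs with B2m, was at 16.9, 17.8 and 20.5 FPKM in FO, 11.2, 11.6 and 16.1 in BDL and 1.87, 2.27 and 1.95 in MZ cells. It fell by 3.12 on the log2 scale from FO to MZ (adjusted p = 4.04e-06) and was higher in BDL than in MZ by 2.6 (adjusted p = 1.25e-05), so that the B2m partners Cd1d1 and Fcgrt differed between MZ and the other subsets in opposite directions. Between BDL and MZ 5 were lower (Cd1d2, H2-M3, H2-Q2, H2-T10, H2-T22) and Fcgrt was higher. These were 26.3% and 5.26% of the list, beside 11.6% and 16.5% of all rows. Between BDL and FO 0 of the 19 chains passed (3 at an unadjusted p under 0.05), where 6.04% of all rows passed as higher and 1.68% as lower. The median of the list was -0.027, beside 0.048 over all rows.

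Of 16 regulators, all tested, 7 were lower in MZ than in FO by the adjusted p and 0 higher, beside 12.8% and 14.3% of all rows, with a median log2 fold change of -0.402 beside -0.009 over all rows. These were Irf1, Irf2 and Irf8, factors of the interferon response, Ifnar1, a chain of the type I interferon receptor, Nfya and Nfyb, which bind the CCAAT box, and Ciita, the class II transactivator. Irf1 was at 60.8, 79.5 and 72.4 FPKM in FO, 52.3, 64.1 and 50.2 in BDL and 33.9, 39.9 and 39.7 in MZ cells (MZ over FO -0.90, adjusted p = 0.00168). Ciita was at 98.2, 75.5 and 84.9 FPKM in FO, 64.4, 60.6 and 60.2 in BDL and 49.4, 42.8 and 47.5 in MZ cells, and was the 1 regulator that passed between BDL and FO (log2 fold change -0.47, adjusted p = 0.0378). The same 7 genes were higher in BDL than in MZ and 0 regulators lower, beside 16.5% and 11.6% of all rows. None of the 7 reached a fold of 2. These 7 regulators were picked as lower in MZ, and their MZ values were below FO on every date. Among the members, MZ was above FO on every date for H2-K1, B2m, Psmb9, Nlrc5 and Cd1d1, and below it for Tap2. For H2-D1, Tap1, Tapbp and Psmb8 the direction varied by date.

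Of 7 genes of loading and folding in the endoplasmic reticulum, 0 passed between BDL and FO or between MZ and FO by the adjusted p, with 1 in each at an unadjusted p under 0.05. Of all rows, 6.04% passed as higher and 1.68% as lower in BDL than in FO, and 14.3% and 12.8% in MZ than in FO. Ganab alone, which trims glycans, was higher in BDL than in MZ (0.25, adjusted p = 0.0465), 14.3% of the list beside 16.5% of all rows. Of 8 further proteasome genes, Pomp, a proteasome assembly factor, and Psmb5 were higher in BDL than in FO by the adjusted p. They were 25% of the list, beside 6.04% of all rows. Psmb5, Psmb6 and Psmb7 were higher in BDL than in MZ, 37.5% of the list beside 16.5% of all rows. The medians were 0.364 and 0.382 over the list, beside 0.048 and 0.057 over all rows. Pomp was at 41.2, 49.7 and 43.6 FPKM in FO, 67.3, 67.4 and 88.8 in BDL and 51.3, 50.2 and 68.9 in MZ cells. Psmb5 passed in both comparisons of BDL, whereas Psmb8, which takes its place in the immunoproteasome, passed in neither.

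Of 16 genes of lipid loading and trafficking of CD1d, 15 were tested. Psap, the precursor of the saposins that load lipids onto CD1d, was at 203, 180 and 211 FPKM in FO, 318, 298 and 348 in BDL and 482, 456 and 601 in MZ cells. The subsets did not overlap and the order was FO, BDL, MZ on each date. Psap was called higher in MZ than in FO (log2 fold change 1.36, adjusted p = 0.000136), and it was higher in BDL than in FO by 0.70 (adjusted p = 0.0192) and lower in BDL than in MZ by a log2 fold change of -0.67 (adjusted p = 0.00684). Npc1, a lysosomal lipid transporter, was at 8.04 ± 0.352 FPKM in FO, 9.28 ± 1.07 in BDL and 12.2 ± 1.68 in MZ cells (SD, n = 3, MZ over FO 0.59, adjusted p = 0.00687). Hexa, which encodes a lysosomal enzyme subunit, was higher in MZ than in FO by 0.41 (adjusted p = 0.0337). Ap3d1 and Ap2m1, subunits of the adaptors that sort CD1d to endosomes, were lower in MZ than in FO (-0.32 and -0.41, adjusted p = 0.0239 and 0.0333). Both were also higher in BDL than in MZ, as was Rab7, a GTPase of late endosomes, by 0.46 (adjusted p = 0.0405). Gla, the lysosomal alpha-galactosidase, was lower in BDL than in MZ (log2 fold change -0.99, adjusted p = 0.0368).

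The genes most like Cd1d1 across the 9 libraries, by Pearson's r of log2(FPKM + 0.1), included Cd1d2 (r = 0.997), Tm6sf1 (0.993), Rxfp1 (0.992) and Herc6 (0.991), and the least alike were Cnn3 (-0.997), Rassf3 (-0.996) and Snx2 (-0.995). Herc6 differed less between subsets than Cd1d1 did, with means of 5.28 FPKM in FO, 5.56 in BDL and 9.15 in MZ cells, while Cnn3 fell to a mean of 40.9 FPKM in MZ from 115 in FO. For Nlrc5 they were Pbx4 (0.997), Ifi27 (0.991), Angptl6 (0.988), Fanca (0.987) and Gmppa (0.983). For H2-K1 they were Btbd19 (0.991), Slc39a4 (0.990), Rundc3b (0.988), Itm2c (0.987) and Herc3 (0.987). Among the members themselves H2-K1 went with Cd1d1 (r = 0.94) and H2-D1 with neither Cd1d1 (0.06) nor H2-K1 (0.36), while Nlrc5 and Psmb8 ran against each other (-0.91). These values describe 9 libraries in 3 groups that share title dates, and the highest of 11597 rows are high by selection.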

How the data were processed

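RNA-seq of 9 libraries (3 each of FO, BDL and MZ B cells) was analysed. Per the labels and the study's methods, the authors aligned reads to mm9 with TopHat2 2.1.0 and deposited FPKM from Cufflinks, 1 value per gene and library. The annotation is not given in the sources used here. The labels describe single-end unstranded reads and the methods a stranded kit with 2 files per sample. Of the low values, 70.0% to 76.7% were whole fragments (tolerance 0.1, with 20% by chance), for a relative depth of 0.907 to 1.22. No count test was run. The authors' table of Cuffdiff fold changes and p-values was not used.

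Values were put on the scale log2(FPKM + 0.1), which understates fold changes of low genes. After the filter at a mean of 0.5 FPKM, limma 3.58.1 (R 4.3.3, lmFit and trended eBayes) was run on all libraries together without covariates beside subset, with adjustment over every row tested and thresholds from the study's methods. Ratios were compared by a two-sided exact permutation test over libraries. The fit was tested on simulated data. Libraries are sorts of pooled mice, so p-values measure the spread between sorts.

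Libraries of 1 replicate number share a number in the form of a date in their titles, taken here as a shared day that pairs them. Their deviations from the subset means correlated at -0.0623 to 0.147 (BDL and FO), 0.1 to 0.244 (BDL and MZ) and 0.0077 to 0.0238 (MZ and FO), and a fit with the date as a block was an alternative. The members and lists were chosen with earlier results of these data known. Named are all members, the pathway genes with an adjusted p under 0.05 or used in a ratio, and the 5 genes most like Cd1d1, Nlrc5 and H2-K1, with the 3 least like Cd1d1. Some genes picked by this rule are counted but not reported here by name. Positions and shared 50-base windows came from GENCODE M1 and promoters from RefSeq. Leaving out the third title date, correcting for GC content and length, and summing Cd1d1 and Cd1d2 were alternatives chosen after seeing the data. Plots used matplotlib 3.10.9.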

Additional observations from a re-analysis of the deposited data

How the results depend on the processing

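The count of members called was the same (0, 1 and 1 for BDL over FO, MZ over FO and BDL over MZ) under every pseudocount, minimum, scaling, correction, variance model, replicate block and left-out library or date tried, and it changed only without a fold change minimum, to 2 for MZ over FO and 2 for BDL over MZ. Without that minimum the pathway genes numbered 4, 18 and 25. Under the other alternatives the pathway genes called numbered 0 for BDL over FO, 3 to 5 for MZ over FO and 3 to 6 for BDL over MZ. With the title date as a replicate block they numbered 0, 4 and 4 as without it, and beyond B2m and Psmb9 no member crossed the adjusted p. Cd1d1 ranged from 2.66 to 3.02 for MZ over FO and from -2.72 to -2.32 for BDL over MZ over 24 alternatives, with adjusted p of 0.000475 and 0.00209 at most. Of 693 alternative fold changes of the members, 629 kept their direction and their side of the adjusted p, 18 crossed it, and 46 changed sign while past the threshold in neither fit, at a size of 0.15 at most. Psmb9 for MZ over FO also passed under quantile normalization (0.29, adjusted p = 0.049). Nlrc5 passed for MZ over FO with the 6 libraries alone (adjusted p = 0.0488), and with the GC and length correction together with the block it passed for MZ over FO (0.03) and for BDL over MZ (0.0417). The causes were not tested. Of 192 alternative ratio differences, 8 changed sign, at a size of 0.12 at most. No p-value was computed for them, and the exact test on 3 against 3 libraries cannot go below 0.1. The replicate block is among these alternatives, though it leaves a mean ratio difference unchanged by design. Fragments per gene are estimates, and 3 libraries per subset limit the precision.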
